A study of Homo sapiens with 6 samples.

Results

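The 10 genes described here were the transcription factors SNAI1, SNAI2, ZEB1, ZEB2, TWIST1 and TWIST2, the cadherins CDH1 and CDH2, and the mesenchymal genes VIM and FN1. They were chosen by name from a table of 58735 named genes, and each name had a single row. A filter on low counts kept 8 of the 10 among 14280 genes for testing and left out CDH1 and TWIST2. The counts came from RNA sequencing of 8505C cells, an established line from a human anaplastic thyroid carcinoma. One group of 3 libraries carried a control short hairpin RNA (shRNA), with the genotype given as wild-type, and the other group of 3 an shRNA against HHEX, with the genotype given as HHEX KD. Both groups were otherwise labelled untreated, and the labels do not say how the hairpin was introduced or whether a line was a clone. The libraries are called control1, control2, control3, KD1, KD2 and KD3, as in the count table.

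In the epithelial-mesenchymal transition (EMT), cells loosen their junctions, leave their apical-basal polarity and take on a migratory form. SNAI, ZEB and TWIST proteins are DNA-binding factors that drive it, and SNAI and ZEB proteins repress epithelial genes through E-boxes in their promoters. CDH1 encodes E-cadherin, the adhesion molecule of epithelial junctions, and CDH2 encodes N-cadherin, which takes its place in mesenchymal cells, an exchange known as the cadherin switch. VIM encodes vimentin, the intermediate filament of mesenchymal cells, and FN1 fibronectin, a protein of the extracellular matrix. Anaplastic thyroid carcinoma is a dedifferentiated tumour that often shows mesenchymal features.

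Promoter windows from RefSeq (GRCh38.p14) of 300 bases, from 250 before a transcript start to 50 after it, were searched for the E-box bound by SNAI and ZEB factors, CACCTG on either strand, so that CAGGTG was counted as well. The window of ZEB1 with the most matches and those of CRB3, CLDN7 and RAB25 are shown, with the matches in capitals. CRB3, CLDN7 and RAB25 encode a polarity protein, a tight junction protein and a small GTPase of epithelial cells, and they were picked after both their low counts and their matches were seen.
ZEB1 (chr10:31318966-31319265, plus strand): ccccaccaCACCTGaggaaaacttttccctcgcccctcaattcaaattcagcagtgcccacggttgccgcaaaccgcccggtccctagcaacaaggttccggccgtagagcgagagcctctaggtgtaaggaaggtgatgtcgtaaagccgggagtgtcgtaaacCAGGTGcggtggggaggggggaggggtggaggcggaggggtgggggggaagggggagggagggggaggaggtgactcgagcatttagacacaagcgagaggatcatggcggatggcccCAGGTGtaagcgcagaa
CRB3 (chr19:6464021-6464320, plus strand): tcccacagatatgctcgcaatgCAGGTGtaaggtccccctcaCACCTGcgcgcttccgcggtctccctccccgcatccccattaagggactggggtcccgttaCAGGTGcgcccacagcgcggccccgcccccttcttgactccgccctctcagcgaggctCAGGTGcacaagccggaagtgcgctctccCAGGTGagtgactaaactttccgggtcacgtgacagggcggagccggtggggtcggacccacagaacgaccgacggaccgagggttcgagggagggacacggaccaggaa
CLDN7 (chr17:7262429-7262728, minus strand): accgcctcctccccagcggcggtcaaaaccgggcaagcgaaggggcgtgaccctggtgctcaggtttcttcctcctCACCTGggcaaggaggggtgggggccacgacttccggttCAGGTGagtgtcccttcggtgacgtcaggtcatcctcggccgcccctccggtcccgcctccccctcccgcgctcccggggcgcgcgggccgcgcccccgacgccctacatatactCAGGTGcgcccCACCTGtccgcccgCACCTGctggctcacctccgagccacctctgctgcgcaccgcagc
RAB25 (chr1:156060910-156061209, plus strand): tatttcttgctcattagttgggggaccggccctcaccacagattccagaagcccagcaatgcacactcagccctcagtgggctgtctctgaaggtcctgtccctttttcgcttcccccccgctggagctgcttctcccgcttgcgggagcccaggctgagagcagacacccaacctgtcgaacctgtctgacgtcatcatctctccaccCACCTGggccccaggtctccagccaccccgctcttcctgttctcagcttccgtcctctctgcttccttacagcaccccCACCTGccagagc
The CRB3 and CLDN7 windows held 5 matches each, the ZEB1 window 3 and the RAB25 window 2. The other of the 2 CLDN7 windows held 0, and each of the other ZEB1 windows held 0 or 1. Genes of the epithelial list with high levels held matches as well, with 2 in a window of JUP, 2 in that of DSG2, a desmosomal cadherin, and 1 in a window of TJP1, a tight junction scaffold, whose control levels were 49.7, 32.5 and 18.4 CPM per kb (counts scaled to library size and exon length), so matches were not limited to genes with low counts. A match is a run of letters and not a bound site, and 20.6% of all 35116 windows of this length held at least 1. The windows of VIM, FN1, CDH2, ZEB2 and TWIST2 held none. RefSeq windows were matched for 6 of the 10 genes and for 18 of the 35 epithelial adhesion and polarity genes, so that a share over either list is void. No window was matched for CDH1, SNAI1, SNAI2 or TWIST1, so their promoters were not searched. RAB25 had 0 counts in every library but KD1, where it had 1. CLDN7 had 4, 7 and 17 counts in control1, control2 and control3 and 6, 1 and 15 in KD1, KD2 and KD3. CRB3 had 17, 11 and 22 against 5, 3 and 12.

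Total counts over named genes were 13333245 to 15144176 per library, and 3 counts corresponded to 0.195 to 0.224 CPM (counts per 1000000 counts of a library, after scaling between libraries). HHEX, the target, was at 12.6, 12.8 and 12 CPM in control1, control2 and control3 against 14.8, 7.93 and 7.12 CPM in KD1, KD2 and KD3. HHEX was thus above every control in the library labelled KD1, against its label, and below every control in the other two. Across tested genes KD1 and KD2 correlated at r = 0.989, and each of them with KD3 at 0.955 to 0.956. KD3 correlated at 0.971 to 0.977 with the controls, which is above its r with KD1 and KD2. The study calls the 3 libraries of a group biological replicates, but nothing says that they came from separate cultures, so the p-values cover only how these libraries vary, which may be technical. The sample titles number them rep1_1, rep1_2 and rep2_1 in each group, so some may share a replicate. Which column belongs to which title is not known, and every test here treated the libraries as independent. Of the thyroid identity genes, NKX2-1 was at 26.7 to 50.5 CPM in the controls, while TG, which encodes thyroglobulin, had at most 1 count in any library. Epithelial keratins were present, with KRT18 at 120 and KRT8 at 83.6 CPM per kb. DUOX1, an oxidase of hormone synthesis, was at 1.05, 1.26 and 2.47 CPM in the controls. Markers of fibroblasts summed to 44.1 to 56 CPM in the controls and 14.6 to 48.1 CPM in the HHEX shRNA libraries, those of endothelium to 15 to 16.4 and 5.14 to 15 CPM, and those of leukocytes to 3.74 to 5.31 and 4.36 to 4.99 CPM. COL3A1, CDH5 and CD14 led these sums, and 3 of 9, 2 of 6 and 2 of 7 markers had enough counts to be tested. Of the markers listed, PDGFRA, KDR and VWF were at 0 in every control, and PTPRC was at most 0.0747 CPM in the controls and 0.916 CPM in KD3. PECAM1, an endothelial marker like KDR and VWF, was present instead. It ranged from 4.1 to 5.9 CPM in the controls and from 1.9 to 3.91 CPM with HHEX shRNA. Its groups did not overlap, but it did not pass edgeR's test (adjusted p = 0.316). The part of these cell types in the results below was not tested.

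In the control libraries the levels were those of the mesenchymal end of the list. VIM, FN1 and CDH2 were the 3 highest, CDH1 and TWIST2 were at or near 0, and the other transcription factors lay between. To compare genes, CPM were divided by the length of a gene's annotated exons in kilobases (CPM per kb). VIM stood at 191 ± 38.5 CPM per kb (SD, n = 3), rank 134 of 25447 genes with a count in the controls. FN1 stood at 47.1 ± 8.16 and rank 741, and CDH2 at 19.1 ± 1.79 and rank 2212.

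Among the factors, TWIST1, a basic helix-loop-helix protein, had 5.27 ± 0.735 CPM per kb (SD, n = 3), ZEB1 5.09 ± 0.608 and ZEB2 3.4 ± 0.522. SNAI2, also called Slug, had 1.12 ± 0.214 and SNAI1, also called Snail, 0.985 ± 0.345. The control ranges of TWIST1 and ZEB1 overlapped, as did those of SNAI2 and SNAI1, so neither pair has an order beyond its spread. ZEB1 exceeded ZEB2 in every control per kilobase of all annotated exons, but not per kilobase of the longest annotated transcript, where ZEB1 had 7.02 and ZEB2 8.89 CPM per kb. The order of those 2 genes thus rests on the length used. TWIST2, the close relative of TWIST1, had 0 counts in all 6 libraries, with exact 95% Poisson upper limits of 0.24 to 0.276 CPM.

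**Figure D1:**
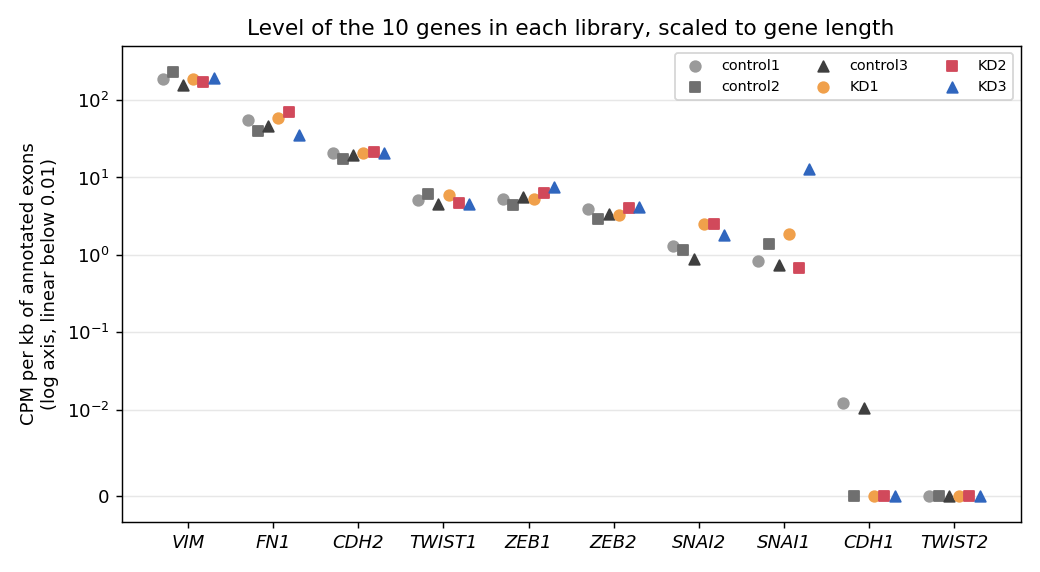
Level of each of the 10 genes in CPM per kb of annotated exons (log axis, linear below 0.01), with 1 point per library, grey for controls and coloured for HHEX shRNA. VIM, FN1 and CDH2 lie highest, CDH1 and TWIST2 at or near 0, and SNAI1 in KD3 lies far above the other 5 libraries.

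CDH1 (ENSG00000039068, chromosome 16, 68737225 to 68835548, plus strand) was all but absent. It had 1 count in control1, 0 in control2 and 1 in control3, and 0 in KD1, KD2 and KD3. The single count of control1 equals 0.0747 CPM, with an exact 95% Poisson interval of 0.00189 to 0.416, which like all such intervals here covers counting error only. A fall of CDH1 in the HHEX shRNA libraries could not have been seen at this depth, and no rise was seen.

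CDH2 (ENSG00000170558, chromosome 18, 27950966 to 28177446, minus strand) had 1370, 1279 and 1482 counts in the control libraries and 1516, 1459 and 1476 in KD1, KD2 and KD3. In the libraries with no CDH1 count, CDH2 was at least 532-fold higher per kilobase in control2, 631-fold in KD1, 607-fold in KD2 and 614-fold in KD3, with CDH1 set to 3 counts per library. The log2 difference of CDH2 and CDH1 CPM with a prior count of 2 was 8.91, 9.27 and 8.89 in the controls and 9.53, 9.56 and 9.56 in KD1, KD2 and KD3. The mean differed by 0.53, with an exact two-sided permutation p = 0.1, the smallest that 3 against 3 libraries allow, and that difference depends on 2 CDH1 counts. The cadherin pair was thus at its N-cadherin end in both groups.

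Other cadherins were present beside CDH2. CDH4, or R-cadherin, stood at 33.8 CPM per kb in the controls, above CDH2. CDH3, the P-cadherin of basal epithelium, stood at 0.62, CDH11, a cadherin of mesenchymal cells, at 1.27, and CDH5, the cadherin of endothelium, at 1.73. CDH6, CDH8 and CDH13 had at most 5 counts in any library. CDH4 had 266, 242 and 238 CPM in the controls and 163, 160 and 202 in KD1, KD2 and KD3, without overlap between the groups. Its log2 fold change of −0.51 (SE 0.14) did not pass edgeR's test (adjusted p = 0.123).

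Epithelial genes were divided in the controls. Of 35 epithelial adhesion and polarity genes, 4 had at most 3 counts in every control library and 11 were under 1 CPM per kb, while 6 were at or above CDH2, among them KRT18, KRT7 and KRT8. JUP, which encodes plakoglobin, had 49.7 CPM per kb and CTNNA1, alpha-catenin, 82.5, so partners of cadherins were present. Of 12 epithelial identity factors, 9 were under 1 CPM per kb, while 2 were at or above CDH2, KLF5 at 23.6 and KLF4 at 19.3. GRHL2 and OVOL1, factors that uphold epithelial identity, had 0 counts in all libraries, and ESRP1, an epithelial splicing regulator, had 1.04 CPM per kb.

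The next comparison asked which of the 10 genes differed between the control and HHEX shRNA groups. By edgeR's quasi-likelihood test with Benjamini-Hochberg adjustment over all genes, 0 of the 8 tested members changed, where 26 of 14280 genes, or 0.182%, were called. SNAI1 and SNAI2 had an unadjusted p under 0.05, as had 20.6% of all tested genes. DESeq2 called 1 member, SNAI2, where it called 5.52% of all genes and 3.11% as higher. Without control1, edgeR called 0.00674% of genes and again 0 members. SNAI2 was also the only member whose groups did not overlap, which held for 24.9% of tested genes. The median log2 fold change of the 8 was 0.20, against −0.01 over all tested genes.

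SNAI2 (ENSG00000019549, chromosome 8, 48917604 to 48921740, minus strand) was at 4.41, 3.98 and 2.99 CPM in control1, control2 and control3 against 8.63, 8.43 and 6.2 CPM in KD1, KD2 and KD3. Every HHEX shRNA library lay above every control, at 2.27, 2.22 and 1.63 times the control mean. The log2 fold change was 1.03 (SE 0.26, 95% confidence interval 0.45 to 1.61), with an edgeR adjusted p = 0.11 and a DESeq2 adjusted p = 0.0277. It was 1.19 without KD3, with an edgeR adjusted p = 0.00269 in a fit that called 31.6% of all genes, and 0.88 to 1.18 without any other library. KD1 and KD2, the HHEX shRNA libraries kept in that fit, may share a replicate, and KD3 was the library least like them. This limit holds for every result without KD3 below. An edgeR fit without the filter on low counts also called SNAI2 (adjusted p = 0.0195), where 4.80% of genes were called. SNAI2 was higher in KD1, where HHEX was not lowered, as well as in KD2 and KD3.

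SNAI1 (ENSG00000124216, chromosome 20, 49982999 to 49988886, plus strand) stood out in a single library. It had 19, 35 and 19 counts in the controls and 47, 16 and 303 in KD1, KD2 and KD3. As CPM these were 1.42, 2.32 and 1.24, and 3.17, 1.14 and 21.4. KD3 was at 12.9 times the control mean (exact 95% Poisson interval of its level 19 to 23.9 CPM), KD1 at 1.91 times, and KD2 at 0.688 times, so that KD1 and KD3 lay above every control and KD2 below every one. By log2 difference from the control mean, SNAI1 in KD3 ranked 7 of 14280 genes. The group log2 fold change, 2.36 with SE 1.00 (edgeR adjusted p = 0.239), rested on KD3, and without it was 0.40 with SE 0.48 (edgeR adjusted p = 0.569).

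**Figure D2:**
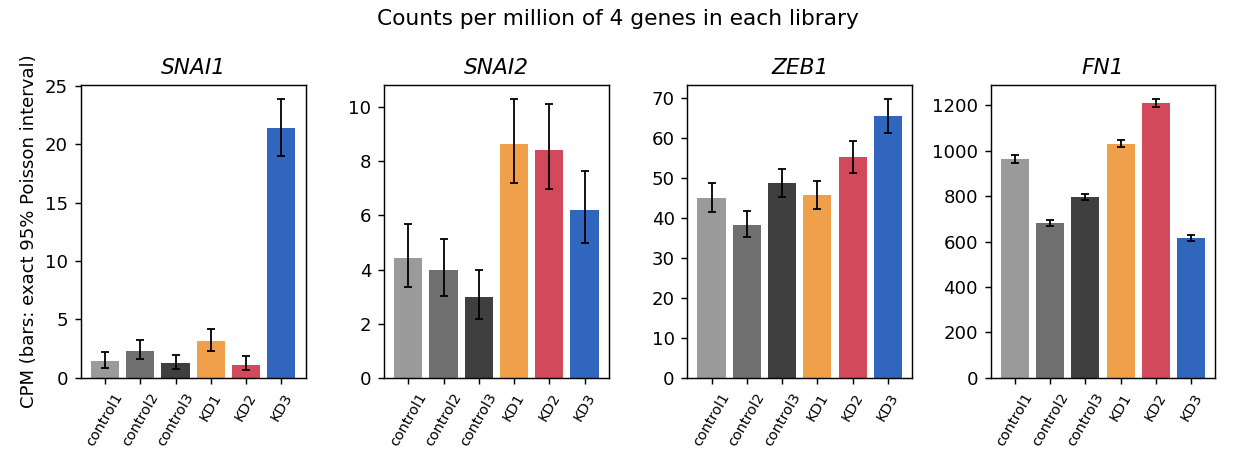
CPM of SNAI1, SNAI2, ZEB1 and FN1 in each library, with bars from 0 and exact 95% Poisson intervals as error bars. SNAI1 reaches 21.4 CPM in KD3 and at most 3.17 in the other libraries, whereas SNAI2 is at 6.2 to 8.63 CPM in the HHEX shRNA libraries and 2.99 to 4.41 CPM in the controls.

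Within the SNAI pair the levels per kilobase were near each other in the controls and apart in KD2 and KD3. SNAI1 made up 39.3%, 54.0% and 45.4% of the sum of both in control1, control2 and control3, 42.5% in KD1, 21.4% in KD2 and 87.4% in KD3. Of the sum of all 6 factors, SNAI1 took 4.8% to 8.7% in the controls and 41.2% in KD3. Summed, the factors came to 15.2 to 16.5 CPM per kb in the controls, and to 19, 18.2 and 30.8 in KD1, KD2 and KD3. No test was made of these shares, which describe single libraries. The shares and sums also rest on the length of all annotated exons, which for ZEB2 is 25058 bases against 9583 in its longest transcript.

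**Figure D3:**
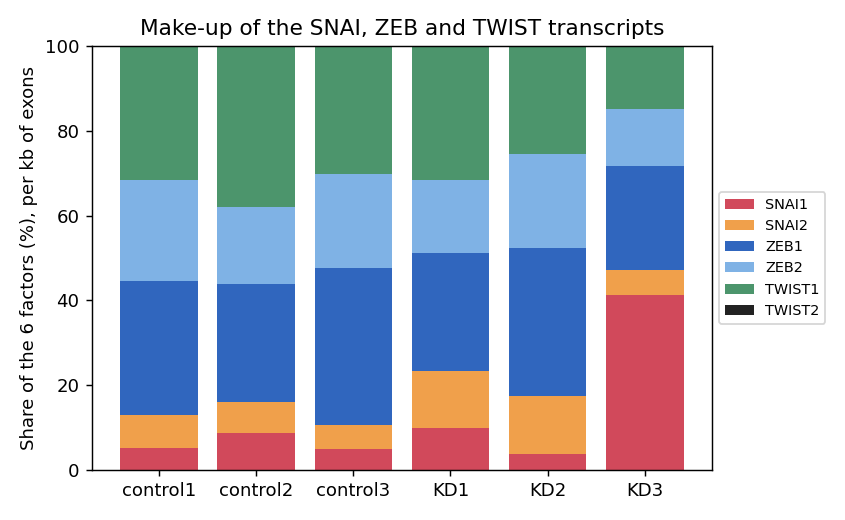
Share of SNAI1, SNAI2, ZEB1, ZEB2, TWIST1 and TWIST2 in their summed level per kb of exons, as 1 stacked bar per library. SNAI1 takes 41.2% in KD3 and 3.7% to 9.9% in the other 5 libraries, and TWIST2 takes 0.0% in all of them.

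ZEB1 (ENSG00000148516, chromosome 10, 31318495 to 31529814, plus strand), a zinc finger and homeodomain repressor, was at 45, 38.3 and 48.7 CPM in the control libraries, against 45.7, 55.1 and 65.4 in KD1, KD2 and KD3. KD2 and KD3 lay above every control and KD1 among them. The log2 fold change of 0.33 (SE 0.17) did not pass (edgeR adjusted p = 0.289). ZEB1-AS1, an antisense RNA that shares 366 exon bases with ZEB1, was at 12.3, 10.8 and 11.8 CPM in the control libraries, against 7.95, 5.57 and 7.19 in KD1, KD2 and KD3. Its groups did not overlap, and it did not pass either (log2 fold change −0.75 with SE 0.20, edgeR adjusted p = 0.126). Whether counting used strand is not stated, and reads of the shared bases are therefore uncertain between the pair.

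ZEB2 (ENSG00000169554, chromosome 2, 144364364 to 144524583, minus strand), the relative of ZEB1, was at 98.6, 72.4 and 84.6 CPM in the control libraries, against 82.4, 101 and 105 in KD1, KD2 and KD3. Its groups overlapped, and its log2 fold change was 0.18 (95% confidence interval −0.18 to 0.53). TWIST1 (ENSG00000122691, chromosome 7, 19020991 to 19117672, minus strand) was at 10.5, 12.3 and 9.31 CPM and at 12.2, 9.43 and 9.23 CPM, also with overlap. Its log2 fold change was −0.06 (95% confidence interval −0.52 to 0.41), and its sign turned without control2, KD2 or KD3. TWIST2 (ENSG00000233608, chromosome 2, 238848032 to 238910543, plus strand) gave no fold change, with both groups at 0.

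CDH2 was at 102, 84.9 and 96.5 CPM in the control libraries, against 102, 104 and 104 in KD1, KD2 and KD3, with KD2 and KD3 above every control. The log2 fold change was 0.13 (SE 0.12, 95% confidence interval −0.14 to 0.40, edgeR adjusted p = 0.55). A change of 2-fold in either direction lies outside that interval.

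VIM (ENSG00000026025, chromosome 10, 17228259 to 17237593, plus strand) was at 957, 1195 and 801 CPM in the control libraries, against 975, 882 and 1002 in KD1, KD2 and KD3. All HHEX shRNA libraries lay within the control range. The log2 fold change was −0.05 (95% confidence interval −0.46 to 0.37), and its sign turned without control2 or KD2. VIM-AS1, which shares 641 exon bases with VIM, had 4.95 to 6.77 CPM over all libraries.

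FN1 (ENSG00000115414, chromosome 2, 215360440 to 215436172, minus strand) split the HHEX shRNA libraries. It was at 965, 684 and 798 CPM in the controls, at 1031 and 1210 CPM in KD1 and KD2, above every control, and at 617 CPM in KD3, below every control. The log2 fold change over all 6 libraries was 0.22 (SE 0.25, edgeR adjusted p = 0.636). Without KD3 it was 0.48 (SE 0.15, edgeR adjusted p = 0.0273), in the fit that called 31.6% of all genes. The table sums all isoforms of fibronectin, so the form made by the cells was not analysed here.

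**Figure D4:**
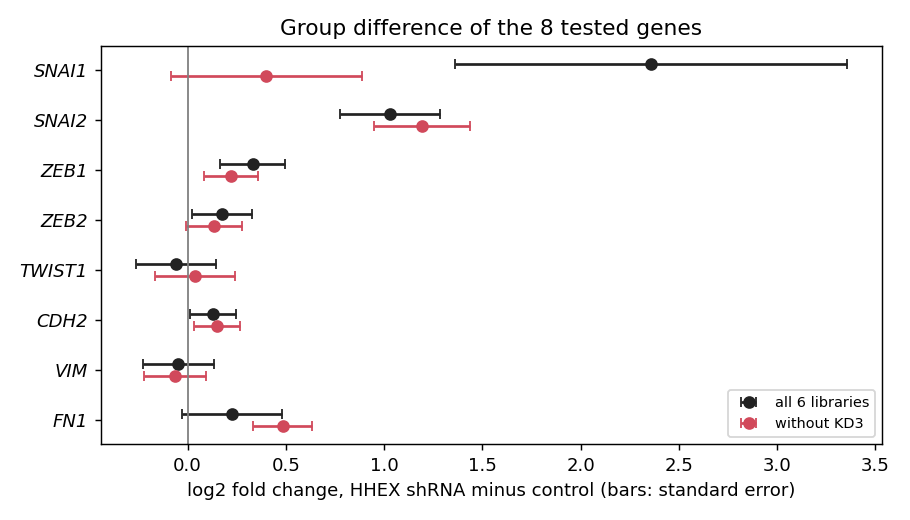
Log2 fold change of the 8 tested genes, HHEX shRNA minus control, from edgeR with all 6 libraries (black) and without KD3 (red), with the standard error as bars. SNAI1 moves from 2.36 to 0.40 without KD3, SNAI2 stays near 1, and VIM and TWIST1 lie near 0 in both fits.

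Set library by library against the controls, KD1 had 3 of the 8 members above every control (SNAI1, SNAI2 and FN1) and 0 below, where 34.1% of all tested genes were above and 37.0% below. KD2 had 5 above (SNAI2, ZEB1, ZEB2, CDH2 and FN1) and 1 below, SNAI1, against 34.4% and 37.6% of all genes. KD3 had 5 above (SNAI1, SNAI2, ZEB1, ZEB2 and CDH2) and 2 below, TWIST1 and FN1, against 29.9% and 31.6%. More than 2-fold above the mean log2 level of the controls were SNAI2 in KD1 and KD2 and SNAI1 in KD3, 1 member per library, against 3.94%, 4.27% and 1.91% of tested genes. A control set against the other 2 had 0 members and 0.707%, 1.32% or 2.04% of tested genes past that size. No member was more than 2-fold below in any of the 3. SNAI2 was thus the only member above all controls in each HHEX shRNA library.

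Of 15 other transcription factors linked to EMT, 10 were tested, and 0 passed edgeR's test. Of these 9 had a positive log2 fold change, with a median of 0.38 against −0.01 over all genes, and 6 had an unadjusted p under 0.05, all of them higher, where 10.4% of all genes were higher at that p. This list and those below were chosen with earlier results of these data known, so their counts are descriptions only. FOXC1, a forkhead factor, was at 10.6, 10.4 and 13 CPM in the control libraries, against 17.4, 20 and 20.3 in KD1, KD2 and KD3 (log2 fold change 0.76 with SE 0.17, edgeR adjusted p = 0.105). TCF4, an E protein, was at 15.7, 12.6 and 13.3 CPM against 24.9, 31.4 and 15.3. HMGA2, a chromatin protein that acts in TGF-beta driven EMT, was at 55.4 to 60.5 CPM in the controls, at 154 and 163 CPM in KD1 and KD2 and at 43.6 CPM in KD3. Like FN1, it was above the controls in KD1 and KD2 and below them in KD3. It is counted among the TGF-beta genes below as well. PRRX1, GSC and FOXQ1 had at most 2 counts in any library.

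Genes that carry the input from TGF-beta, a growth factor that induces SNAI and ZEB genes, gave 0 of 13 calls. Their median log2 difference from the controls came to 0.36 in KD1, 0.43 in KD2 and −0.06 in KD3. TGFBR1, a receptor, was at 95.3, 74 and 80.2 CPM in the control libraries, against 197, 218 and 79.5 in KD1, KD2 and KD3. SMAD3, a signal transducer, was at 313, 268 and 300 CPM against 424, 444 and 325, without overlap (log2 fold change 0.44 with SE 0.16, edgeR adjusted p = 0.185). Without KD3, 6 of the 13 rose and 0 fell, in the fit that called 16.5% of all genes as higher and 15.1% as lower.

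Co-repressors that SNAI and ZEB proteins recruit gave 0 of 13 calls, with a median log2 fold change of 0.21. AJUBA, a LIM protein that binds SNAI factors, was at 183, 196 and 242 CPM in the control libraries, against 92.1, 95 and 169 in KD1, KD2 and KD3, and LIMD1, its relative, at 37.9, 26.5 and 36.3 against 49.9, 56.3 and 46.4 CPM. Both had groups without overlap, in opposite directions, and neither passed (edgeR adjusted p = 0.145 and 0.13). CTBP2, a co-repressor of ZEB proteins, was at 111 to 116 CPM in the control libraries and at 78.3, 82.2 and 109 CPM. Genes of SNAI and TWIST protein turnover also gave 0 of 13 calls, with a median of 0.05. Among them GSK3B, the kinase that marks SNAI1 protein for decay, was at 173, 138 and 141 against 190, 209 and 155 CPM.

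Mesenchymal effector genes other than VIM and FN1 gave 0 of 32 calls (22 positive and 10 negative log2 fold changes, median 0.16). CD44, a hyaluronan receptor, was at 577, 541 and 466 against 990, 1009 and 682 CPM (edgeR adjusted p = 0.113), and VCAN, a matrix proteoglycan, at 18.8, 10.9 and 10.3 against 48.3, 67.2 and 19.7 CPM (edgeR adjusted p = 0.124). For both genes every HHEX shRNA library lay above every control. Without overlap between the groups were 6 genes of the list that were higher and 2 that were lower. Over all tested genes, 11.6% were higher and 13.3% lower without overlap. The 2 lower genes of the list were COL6A1, a collagen chain, and GNG11, a G protein subunit (edgeR adjusted p = 0.207 and 0.152). COL6A1 was at 96.9, 116 and 89.3 against 85.2, 80.8 and 62.8 CPM, and GNG11 at 31.9, 47.8 and 31.2 against 25.2, 24.4 and 23.7 CPM. AXL, a receptor kinase, had 278 CPM per kb in the controls and a log2 fold change of 0.09. ACTA2, CNN1 and POSTN, genes of myofibroblasts, were at most 1.04 CPM in any library. Without KD3, 14 of 33 tested genes of the list rose and 3 fell, in the fit that called 16.5% of all genes as higher and 15.1% as lower.

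Epithelial adhesion and polarity genes gave 0 of 28 calls, with 23 negative and 5 positive log2 fold changes and a median of −0.29. Their median log2 difference from the controls came to −0.39 in KD1, −0.39 in KD2 and −0.04 in KD3. CLDN1, a tight junction claudin, was at 63.8, 64.3 and 84.1 CPM in the controls, at 11.9 and 10.7 CPM in KD1 and KD2 and at 82.6 CPM in KD3. EPCAM, an adhesion molecule of epithelium, was at 1.49, 1.33 and 2.28 CPM against 0.202, 0.5 and 1.69. PKP2 was at 70.1, 64.6 and 64.8 against 43.3, 46.3 and 58.3 CPM. CLDN4, another claudin, was at 7.25, 9.36 and 8.53 against 4.52, 3.43 and 7.19 CPM. Neither of these passed (edgeR adjusted p = 0.162 and 0.213). Without overlap between the groups, 4 genes of the list were lower and 2 higher, against 13.3% and 11.6% of all tested genes. KRT7, a keratin of simple epithelium, went the other way, at 370, 439 and 409 against 734, 658 and 466 CPM, without overlap (log2 fold change 0.61 with SE 0.19, edgeR adjusted p = 0.146). Without KD3, 12 of 29 tested genes of the list fell and 3 rose, where 15.1% of all genes fell and 16.5% rose.

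Of the epithelial identity factors 5 were tested and 0 passed, with 4 negative log2 fold changes and 1 positive. The median of −0.60, that of ELF3 with 3 to 20 counts per library, became −1.36 without KD3. KLF5 was at 90.9, 101 and 84 CPM in the controls and 80.9, 81.3 and 92 CPM in KD1, KD2 and KD3 (log2 fold change −0.12 with SE 0.12). ESRP1 was at 6.35, 3.12 and 5.79 CPM in the controls, at 0.539 and 0.429 CPM in KD1 and KD2 and at 4.79 CPM in KD3. KLF4, a factor of epithelial differentiation, was at 63.4, 87.2 and 61.6 CPM and at 29.2, 25 and 79.7 CPM. In both genes KD1 and KD2 were below every control and KD3 was within their range. Without KD3 both fell (edgeR adjusted p = 0.000169 and 7.3e-05), as did 15.1% of all genes in that fit. The fit kept KD1, where HHEX was not lowered, and leaving out any other library called at most 1 gene. KD1 and KD2 may share a replicate, so these adjusted p-values may not cover how replicates vary. KD3 was also the library with the high SNAI1 count, and a link of SNAI1 to these genes was not tested.

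**Figure D5:**
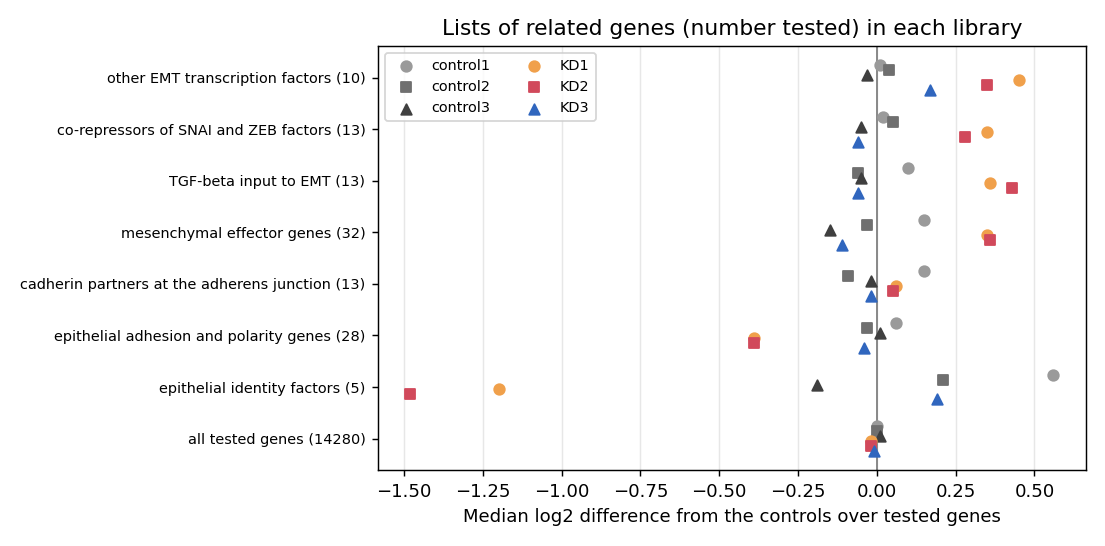
Median log2 difference from the controls over the tested genes of each list (number tested in brackets), with 1 point per library, where a control is set against the other 2. KD1 and KD2 lie at −1.20 and −1.48 for the epithelial identity factors and at −0.39 for the adhesion genes, and KD3 lies at 0.19 and −0.04, where the controls span −0.19 to 0.56 and −0.03 to 0.06.

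Partners of cadherins at the adherens junction gave 0 of 13 calls, with a median log2 fold change of 0.04. VCL, which encodes vinculin, was at 199, 163 and 158 CPM in the control libraries, against 295, 321 and 226 in KD1, KD2 and KD3 (log2 fold change 0.70 with SE 0.17, edgeR adjusted p = 0.107). ARVCF, a catenin of the p120 family, was at 14.2, 19.1 and 17.1 against 11, 11.1 and 10.1 CPM (log2 fold change −0.65 with SE 0.18, edgeR adjusted p = 0.127). Both had groups without overlap. CTNNA1, which links cadherins to actin, was at 805, 717 and 665 against 707, 717 and 708 CPM, within the control range in each library. Nuclear transcripts listed to watch RNA quality had a median log2 fold change of −0.02, and NEAT1 was at 551, 1031 and 1115 against 426, 462 and 502 CPM. The part of RNA quality in these results was not tested.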

How the data were processed

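The authors deposited raw read counts per gene for 6 libraries in 1 table, per the file headers. Libraries were made from Trizol RNA with an mRNA capture kit, per the labels' protocols. The sources used here do not give the aligner, counter, genome build or use of strand. For 58638 of 58735 named genes the table's coordinates are those of GENCODE 29 (GRCh38), which also supplied exon lengths. Another 998 rows without a gene name, with 0.239% to 0.298% of the counts, stayed out of library sizes and tests, and 6 columns of per-library values were not used.

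Columns name the group and a number that is not the replicate of the titles, so they were mapped to groups only. Counts were fitted with edgeR 4.0.16 in R 4.3.3 (filterByExpr by group, TMM, robust glmQLFit, glmQLFTest) over all 6 libraries without covariates. Benjamini-Hochberg adjustment covered all 14280 tested genes, at a threshold of 0.05. Each SE was derived from the log2 fold change and its quasi-likelihood F value. CPM used TMM factors, and log2 CPM a prior count of 2. Alternatives were RLE, upper-quartile and no scaling, no filter, DESeq2 1.42.0, the column number as a block, each library left out, a smaller prior count, and the longest transcript as length. The 10 members and the gene lists were chosen with earlier results of these data known. Beside them are named HHEX, in each list up to 4 genes with the smallest p and up to 3 with the highest level, genes that overlap a member, those most like a member, and markers at 0. CLDN1, EPCAM, CRB3, CLDN7, RAB25, GRHL2, OVOL1, CDH6, CDH8, CDH13, PRRX1, GSC, FOXQ1, TG, ACTA2, CNN1, POSTN, COL6A1, GNG11, DSG2 and TJP1 were named after their values were seen. A few genes of the lists are counted in them but not reported here by name.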

Additional observations from a re-analysis of the deposited data

How the results depend on the processing

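The number of changed genes, 26 by edgeR, was 1359 without the filter on low counts, 774 by DESeq2 and 0 to 4675 when each library was left out in turn. It was 4675 without KD3, where the HHEX shRNA libraries kept, KD1 and KD2, may share a replicate, and at most 1 without any other library. The number of changed members, 0, was 1 without the filter and 1 by DESeq2 (SNAI2 in both), and 0 to 2 with a library left out, with SNAI2 and FN1 called without KD3. Both counts stayed near their values with RLE, upper-quartile or no scaling. With each library left out in turn, the log2 fold change of TWIST1 ran from −0.197 to 0.071 and turned positive without control2 (0.071), KD2 (0.007) or KD3 (0.038), and that of VIM ran from −0.176 to 0.133 and turned positive without control2 (0.133) or KD2 (0.011); the cause was not tested. With the length of the longest annotated transcript, levels in the controls were 369 CPM per kb for VIM, 88.9 for FN1, 21.8 for CDH2, 8.89 for ZEB2, 7.02 for ZEB1, 6.43 for TWIST1 and 1.34 for SNAI2, since that length is shorter for these genes. With the column number as a replicate block, 30 genes and 0 members were called, and SNAI1 lay at 1.51. Same-numbered libraries deviated from their group means with r = −0.047, −0.069 and 0.123 across genes. These values show no clear pairing by number, but with 3 libraries per group the check cannot exclude a pairing. The CDH2 to CDH1 difference of 0.53 became 1.20 with a prior count of 0.5. At this depth, genes near 3 counts, such as CDH1, TWIST2 and RAB25, cannot show a fall.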

Other observations

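The genes whose log2 CPM followed a member most closely over the 6 libraries were sought among 7672 tested genes with a mean of at least 20 CPM. With so few libraries many genes reach a high r, so these are descriptions only. GJA1, which encodes the gap junction protein connexin 43, was most like SNAI2 (Pearson r = 0.998 across 6 libraries), at 90.6, 86.2 and 74.9 CPM in the controls and 141, 142 and 114 CPM in KD1, KD2 and KD3. AGO1, an Argonaute protein, was most like FN1 (r = 0.997), and DSTYK, a kinase, most like CDH2 (r = 0.996). ZNHIT6 was most like SNAI1 (r = 0.996), but ranged only from 82.3 to 108 CPM where SNAI1 ranged from 1.14 to 21.4.

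KD3 also stood apart in a pair of genes that mark other cell types in tissue. CDH5 was at 10.3, 10.4 and 10.9 CPM in the controls, 11 and 9.93 CPM in KD1 and KD2 and 2.61 CPM in KD3. COL3A1, a fibrillar collagen, was at 49.5, 51.5 and 36.5 CPM in the controls, 36.4 and 40.8 CPM in KD1 and KD2 and 9.94 CPM in KD3. Neither passed edgeR's test between the groups (adjusted p = 0.603 and 0.441), and the difference of KD3 from the rest has no replicate.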
